A study of Mus musculus with 11 samples.

Results

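RNA of sorted brain microglia was compared between 3 libraries of the genotype Tyrobp-/-;Inpp5d+/-;NLGF, called the compound mutant here, and 2 libraries of the genotype Tyrobp-/-;NLGF. The comparison bears on what a heterozygous Inpp5d genotype does to microglia that lack Tyrobp. The 5 libraries were chosen by genotype label alone, out of 11 in the series. The other 6, which carry Tyrobp, are 3 of Inpp5d+/-;NLGF and 3 of NLGF, and they were used for the fit and to ask whether the Inpp5d+/- difference depends on Tyrobp. Every mouse carried the NLGF alleles, an App knock-in that gives amyloid plaques without overexpression of App, on a C57BL/6 background, at 9 to 10 months of age. The cells were live CD11b+/CD45+ cells of the brain, a gate that other myeloid cells than microglia can also pass. The labels used here do not describe the Tyrobp or Inpp5d alleles, and both are given without a cell type restriction.

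Inpp5d encodes SHIP1, a lipid phosphatase of blood and myeloid cells that removes the 5-phosphate from the PI3K product PIP3. In microglia it is known as a brake on signalling from receptors such as TREM2. Tyrobp encodes DAP12, the adaptor that carries an ITAM motif and passes the TREM2 signal to the kinase SYK and on to PI3K and PLCG2. Microglia near plaques take up a state known as disease-associated microglia (DAM), whose stage 2 genes need TREM2.

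The total counts of the 5 libraries ran from 49929944 to 62155834, and 21493 to 22662 genes were detected in each. Of 55401 genes in the table, 20390 passed the filter on low counts and were tested. Levels below are in CPM, read counts scaled to the size of each library, and they compare a gene between libraries and not different genes with each other. The microglial genes P2ry12, Tmem119 and Cx3cr1 lay between 4753 and 6589 CPM in all 5 libraries. Compound replicate 1 stood apart on multidimensional scaling of the 5 libraries, at 3.59 on the leading dimension (31.9% of the variance), where the other 4 lay between -2.14 and 0.18. Numbers in the titles of both groups interleave, and the labels do not say what they mark.

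Markers of neutrophils, which are CD11b+ blood cells, differed widely within both groups. The summed level of 15 neutrophil markers was 267.5, 10090 and 2324 CPM in compound replicates 1, 2 and 3. It was 19470 and 4514 CPM in Tyrobp-/-;NLGF replicates 1 and 2, and 0.753 to 235 CPM in the 6 libraries with Tyrobp. The 16 monocyte markers summed to 131, 1125 and 361 CPM in the compound mutant and to 2063 and 548 CPM in Tyrobp-/-;NLGF, in the same order of libraries. By sign all 15 neutrophil markers and 14 of the 16 monocyte markers were lower in the compound mutant, and none of them had an adjusted p under 0.05. Neuron markers summed to 22.4 CPM in compound replicate 1, against 0.481 to 2.49 CPM in the other 4 libraries, and all 10 tested were higher in the compound mutant by sign, while Nefl and Nefm were at 0. In bulk RNA, fewer cells of a type and less RNA per cell cannot be told apart. A gene whose level has the library order of S100a8, the most abundant of the neutrophil markers, is marked as such below. That order puts Tyrobp-/-;NLGF replicate 1 highest and compound replicate 1 lowest, with 304 of all tested genes (1.49%) following it, and the part of these cells in the results was not tested except where stated.

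**Figure D1:**
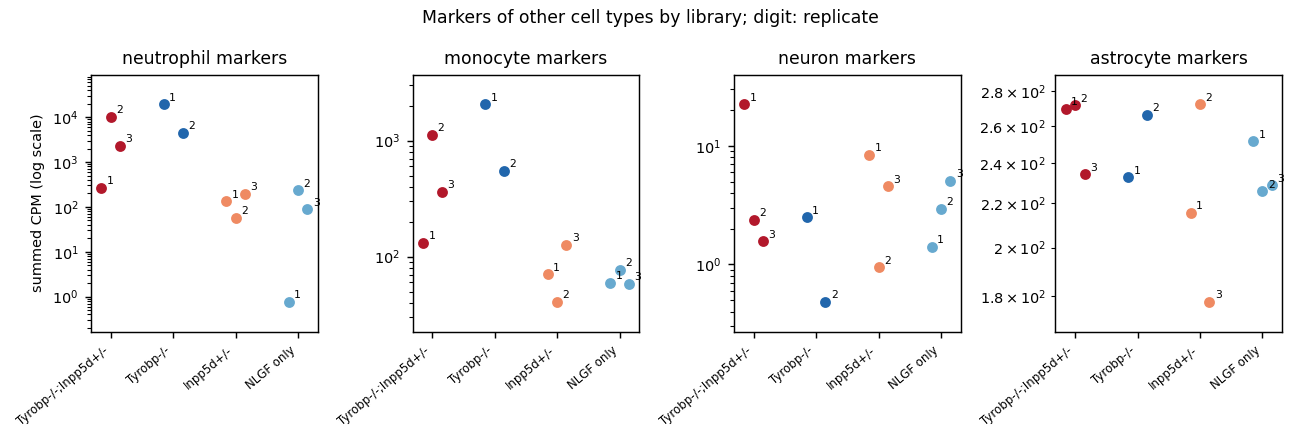
Summed CPM (log scale) of markers of 4 other cell types in each library, 1 point a library with its replicate number, by genotype with NLGF left out of the axis names. The neutrophil sums of the compound mutant (267.5 to 10090 CPM) overlap those of Tyrobp-/-;NLGF (4514 and 19470 CPM), and compound replicate 1 has the highest neuron sum at 22.4 CPM.

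The targeted genes come ahead of the rest. Inpp5d (ENSMUSG00000026288.14, chr1:87620312-87720507, GRCm38) was at 189.8, 259.9 and 259.5 CPM in the compound mutant, against 449 and 447 CPM in Tyrobp-/-;NLGF. The groups did not overlap, and the compound mean was lower by a log2 fold change of -0.92 (SE 0.28, 95% interval -1.55 to -0.30), with an unadjusted p of 0.00804 and an adjusted p of 1 over all genes in edgeR's quasi-likelihood test. With Tyrobp present Inpp5d was at 279.8, 219 and 190.6 CPM in Inpp5d+/-;NLGF and at 436, 205 and 313 CPM in NLGF, so those groups overlapped. The log2 difference between these 2 effects was -0.45 (95% interval -1.30 to 0.39, unadjusted p = 0.257 in edgeR), which covers no difference as well as a larger loss without Tyrobp. Tyrobp itself was at 3.22, 8.39 and 3.88 CPM in the compound mutant and at 8.94 and 7.01 CPM in Tyrobp-/-;NLGF. This is the library order of S100a8. The log2 fold change of Tyrobp was -0.62 (SE 0.33), and -1.17 without compound replicate 2. The receptor gene Trem2 was at 2128, 2007 and 2248 CPM in the compound mutant and at 2016 and 2052 CPM in Tyrobp-/-;NLGF, a log2 fold change of 0.07 with a 95% interval of -0.22 to 0.35. App, the knocked-in gene, averaged 78.5 ± 6.18 CPM in the compound mutant (SD, n = 3) and 98.2 ± 2.69 CPM in Tyrobp-/-;NLGF (SD, n = 2), with a log2 fold change of -0.32 and an adjusted p of 1.

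With Tyrobp absent, the Inpp5d+/- genotype went with 2 higher genes, Mamdc2 and Fzd9, and no lower gene, at an adjusted p under 0.05 (0.00981% of the 20390 tested). An unadjusted p under 0.05 was reached by 831 genes (4.08%), 454 higher (2.23%) and 377 lower (1.85%). All 3 compound libraries lay above both Tyrobp-/-;NLGF libraries for 1861 genes (9.13%) and below both for 1970 (9.66%). The median log2 fold change over all genes was 0.01. For the 10818 genes with a group mean of 5 CPM or more, the median SE was 0.27 on the log2 scale, and the 95% interval lay within a 2-fold change in either direction for 6991 of them (64.6%). For the remaining genes of that level a 2-fold difference was not excluded by these libraries.

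Mamdc2 (ENSMUSG00000033207.7, chr19:23302609-23448442) encodes a secreted protein with MAM domains and belongs to the DAM stage 2 list. It was at 2.07, 6.51 and 5.19 CPM in the compound mutant, from 110, 409 and 258 counts. In Tyrobp-/-;NLGF it was at 0.0996 and 0.074 CPM, from 5 and 4 counts. Every compound library was thus far above both of these and far below the 70.2 to 96.6 CPM of the NLGF libraries. Mamdc2 rose by 5.69 on the log2 scale (SE 0.59), with an adjusted p of 0.0441 in edgeR, to 5.50% of the NLGF mean in the compound mutant, against 0.104% in Tyrobp-/-;NLGF. In Inpp5d+/-;NLGF it was at 80.9, 84 and 72.6 CPM, a log2 difference of -0.08 from NLGF.

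Fzd9 (ENSMUSG00000049551.2, chr5:135248938-135251230) encodes a Frizzled receptor for Wnt ligands. It was at 2.39, 2.08 and 1.33 CPM in the compound mutant, from 127, 131 and 66 counts, and had 0 counts in both Tyrobp-/-;NLGF libraries. Fzd9 rose at least 33.6-fold against a floor of 3 counts per library (adjusted p = 0.0441 in edgeR), and the compound mean was 42.5% of the NLGF mean. With Tyrobp present it had 101, 106 and 132 counts in Inpp5d+/-;NLGF and 203, 202 and 230 counts in NLGF. These counts are not scaled, and the libraries differ in size, from 29490567 total counts in NLGF replicate 2 to 66637052 in NLGF replicate 3. They therefore do not show whether the levels of the groups with Tyrobp overlap. Of 19 tested members of a list of Wnt receptors and signalling genes, Fzd9 alone had an unadjusted p under 0.05 in edgeR (5.26%, against 4.08% of all genes). A list of this size with 1 such member cannot be told from that share. With any of the 11 libraries left out in turn, the count of called genes was 0 or 1. Mamdc2 alone passed without compound replicate 1, Gpnmb alone, as lower, passed without Tyrobp-/-;NLGF replicate 2, and neither Mamdc2 nor Fzd9 passed in the other 9 fits. The log2 fold change of Mamdc2 lay between 5.35 and 6.05 over the 11 fits, and Fzd9 has no count in either Tyrobp-/-;NLGF library.

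**Figure D2:**
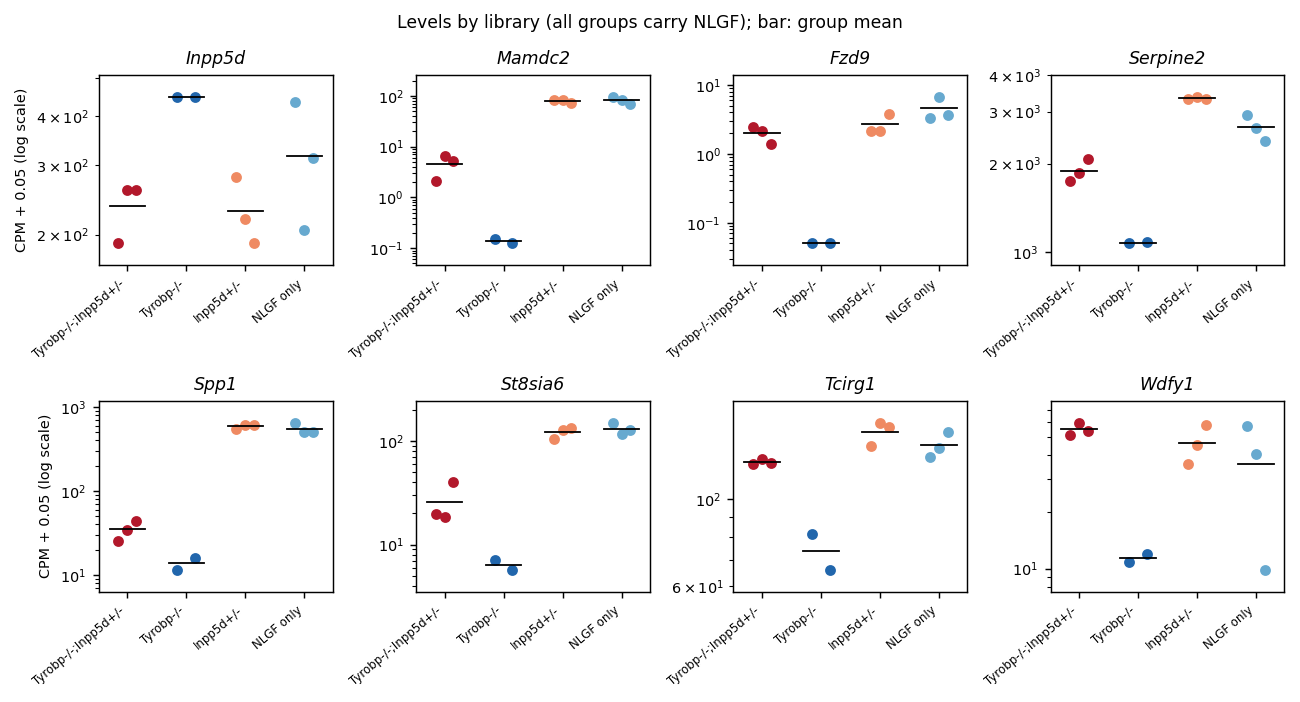
Level of 8 genes in each library (CPM plus 0.05, log scale), by genotype with NLGF left out of the axis names of the mutants, 1 point a library and a bar at the group mean. The compound libraries lie apart from both Tyrobp-/- ones in every panel, below them for Inpp5d and above them for the others, and for Mamdc2, Fzd9, Serpine2, Spp1, St8sia6 and Tcirg1 they lie below all NLGF libraries.

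Serpine2 (chr1:79794197-79861180), which encodes a secreted inhibitor of serine proteases, came closest to the threshold. It was at 1751, 1854 and 2079 CPM in the compound mutant, against 1073 and 1089 CPM in Tyrobp-/-;NLGF. The log2 fold change was 0.81 (SE 0.10, 95% interval 0.59 to 1.02) with an adjusted p of 0.0589 in edgeR. Serpine2 was also at 3305, 3373 and 3309 CPM in Inpp5d+/-;NLGF and at 2919, 2646 and 2391 CPM in NLGF (log2 fold change 0.33, unadjusted p = 0.00306 in edgeR). It lies 7.76 Mb from Inpp5d on chromosome 1. In both Tyrobp backgrounds the heterozygous libraries were all above the others for this gene.

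Serpine2 and Mamdc2 belong to the DAM stage 2 list. Of 34 listed DAM stage 2 genes, 33 were tested, and Egfr did not pass the filter. By sign 27 were higher in the compound mutant and 6 lower, with a median log2 fold change of 0.31, beside 0.01 over all genes. An unadjusted p under 0.05 was reached by 13 higher and 3 lower members, 48.5% of the list, where all genes gave 4.08%. The libraries did not overlap for 15 members that lay above (45.5%, against 9.13% of all genes) and for 1 that lay below. Only Mamdc2 passed over all genes, so for the other members the values are given without a call. The list was drawn up with earlier results of these libraries in view and is not independent evidence of its direction.

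Among secreted factors, Spp1, which encodes osteopontin, was at 25.5, 34.5 and 44.1 CPM in the compound mutant, against 11.5 and 15.8 CPM in Tyrobp-/-;NLGF. The groups did not overlap (log2 fold change 1.34, SE 0.23, unadjusted p = 2.1e-04, adjusted p = 0.566 in edgeR), and both lay far under the 499.5 to 646 CPM of NLGF. The growth factor gene Igf1 was at 7.29, 21 and 15.3 CPM in the compound mutant and at 6.25 and 7.31 CPM in Tyrobp-/-;NLGF, so that compound replicate 1 lay just below the higher Tyrobp-/-;NLGF library. Csf1, the ligand of the receptor that maintains microglia, was at 31.5, 29.2 and 39.4 CPM in the compound mutant and at 19.2 and 20.4 CPM in Tyrobp-/-;NLGF. The chemokine gene Ccl6 was at 927, 1033 and 1014 CPM in the compound mutant and at 759 and 732 CPM in Tyrobp-/-;NLGF. Csf1 and Ccl6 thus had no overlap, at log2 fold changes of 0.75 (SE 0.23) and 0.41 (SE 0.12). Lox, which encodes the collagen cross-linking enzyme lysyl oxidase, had 34, 77 and 251 counts in the compound mutant and 18 and 0 counts in Tyrobp-/-;NLGF, a low level with a wide spread.

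Among genes of lipid and lysosomal function, Lpl, the lipoprotein lipase gene, was at 35.4, 48 and 105 CPM in the compound mutant, against 25.2 and 19.3 CPM in Tyrobp-/-;NLGF (log2 fold change 1.497, SE 0.40). Cst7, which encodes the cathepsin inhibitor cystatin F, was at 91.7, 84.6 and 162 CPM in the compound mutant and at 67.6 and 69.2 CPM in Tyrobp-/-;NLGF. For both genes compound replicate 3 was far above the other libraries, and without it the log2 fold change of Lpl was 0.905. That of Cst7 was 0.72 with all libraries and 0.36 without compound replicate 3 (unadjusted p = 0.0671 in edgeR). The protease gene Ctsl was at 2404, 2359 and 2537 CPM in the compound mutant and at 1971 and 2060 CPM in Tyrobp-/-;NLGF (log2 fold change 0.27, SE 0.07). Ank, which encodes a transporter of pyrophosphate, was at 101.5, 139 and 177 CPM in the compound mutant and at 80.2 and 83.1 CPM in Tyrobp-/-;NLGF (log2 fold change 0.77, SE 0.20). Of the remaining members with an unadjusted p under 0.05, the adhesion gene Cadm1 and the transcription factor gene Hif1a had log2 fold changes of 0.30 (SE 0.08) and 0.49 (SE 0.16).

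The lower members with an unadjusted p under 0.05 were Gpnmb, Postn and Lgals3. Postn, which encodes the matrix protein periostin, was at 0.320, 0.0796 and 0.684 CPM in the compound mutant, against 4.998 and 2.42 CPM in Tyrobp-/-;NLGF (log2 fold change -3.37, SE 0.72, unadjusted p = 9.67e-04 in edgeR), and -4.22 without compound replicate 3 and -2.75 without Tyrobp-/-;NLGF replicate 1. Gpnmb, a transmembrane glycoprotein gene, had 2, 2 and 4 counts in the compound mutant and 73 and 1 counts in Tyrobp-/-;NLGF. Its difference rests on replicate 1 of Tyrobp-/-;NLGF, and without that library the log2 fold change was 1.28 in place of -3.84. Lgals3, the galectin-3 gene, was at 30.1, 92.4 and 46.3 CPM in the compound mutant and at 179 and 71.1 CPM in Tyrobp-/-;NLGF, which is the library order of S100a8. With a covariate for the neutrophil markers its log2 fold change was -0.71 (SE 0.37), against -1.15 (SE 0.45) without, and it was -0.34 without replicate 1 of Tyrobp-/-;NLGF.

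The 13 higher members stayed short of the level with Tyrobp present. All 13 were below every NLGF library in all 5 libraries of both groups. The share of all genes in that position was not counted. Their means were 5.50% to 71.4% of the NLGF mean in the compound mutant (median 18.7%), against 0.104% to 55.9% in Tyrobp-/-;NLGF (median 8.67%). The 13 were picked for being higher in the compound mutant, so the order of these 2 medians was set by that choice. Over all 33 tested members the medians were 21.5% in the compound mutant and 16.4% in Tyrobp-/-;NLGF. Compound replicate 3 was the highest compound library for 9 of the 13 and compound replicate 1 the lowest for 10, where 32.1% and 32.5% of all tested genes had these orders. With the neutrophil covariate 15 members were higher at an unadjusted p under 0.05, and without both Tyrobp-/-;NLGF replicate 1 and compound replicate 2, the libraries with most S100a8, 12 were. The list mean, as the log2 difference from NLGF, was -2.94, -2.49 and -2.17 in compound replicates 1, 2 and 3 and -2.87 and -3.07 in Tyrobp-/-;NLGF, so the libraries of both groups overlapped.

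**Figure D3:**
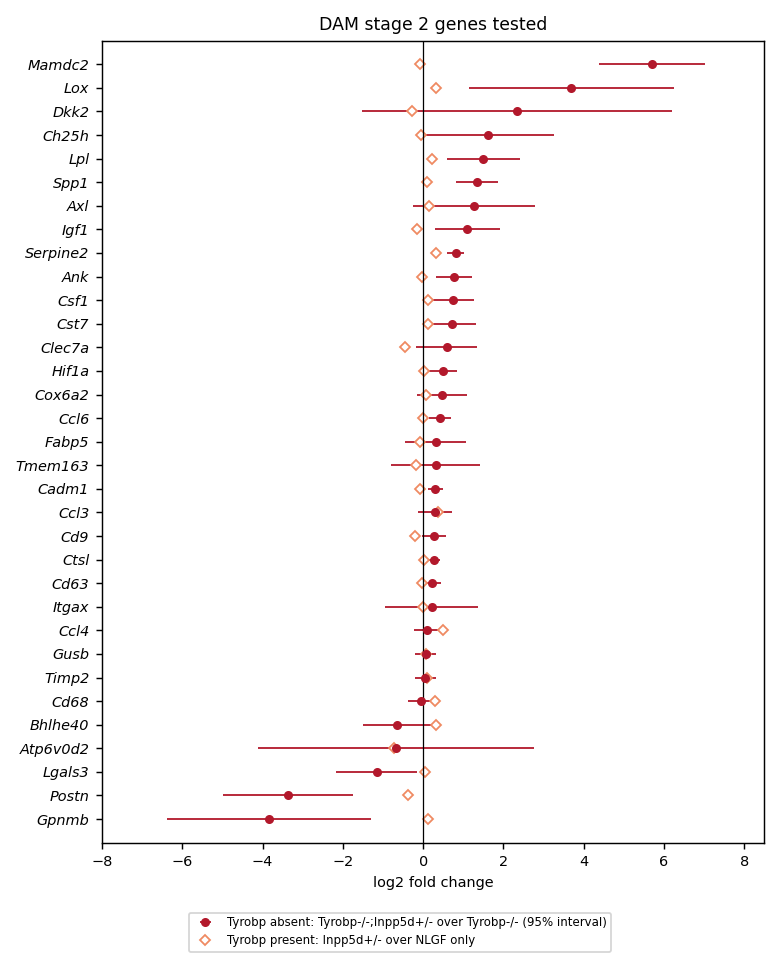
log2 fold change of each of the 33 tested DAM stage 2 genes, ordered by size, for the compound mutant over Tyrobp-/-;NLGF (filled points, bars for the 95% interval) and for Inpp5d+/-;NLGF over NLGF (open diamonds, no interval drawn). With Tyrobp absent 27 members lie above 0 and 6 below, and the intervals of Dkk2, Atp6v0d2, Axl and Itgax are wide.

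The members with larger p-values were mixed in direction and spread. Axl, a receptor tyrosine kinase gene, was at 47.3, 48.7 and 244.5 CPM in the compound mutant and at 66.1 and 28.6 CPM in Tyrobp-/-;NLGF, so that its higher mean rests on compound replicate 3. The integrin gene Itgax was at 7.71, 20.4 and 42.2 CPM in the compound mutant and at 16.4 and 24.1 CPM in Tyrobp-/-;NLGF, with full overlap. Clec7a, which encodes the receptor dectin-1, averaged 231.5 ± 77.3 CPM in the compound mutant (SD, n = 3) and 154.6 ± 40.3 CPM in Tyrobp-/-;NLGF (SD, n = 2). Of 10 DAM stage 1 genes, those that need no TREM2, none had an unadjusted p under 0.05, and the median log2 fold change was 0.06. For 4 of the 10 (40%, against 9.13% of all genes) every compound library lay above both Tyrobp-/-;NLGF libraries. For 0 of them (against 9.66% of all genes) every one lay below. The tetraspanin genes Cd9 and Cd63, which belong to both lists, had log2 fold changes of 0.27 (SE 0.13) and 0.22 (SE 0.10).

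Promoter sequence of the targeted gene Inpp5d and of 2 higher DAM stage 2 genes, Spp1 and Ank, is shown because these windows hold the core of a known myeloid motif. The start in the sequence table lies 0 bases from the gene's 5′ end in the count table for Inpp5d and Ank and 7 bases from it for Spp1. Each is the 250 bases before the start, on the plus strand, from RefSeq on GRCm38.p6. Capitals mark the letters GAGGAA or, on the other strand, TTCCTC, the core that the myeloid factor PU.1 is known to bind. The positions are chr1:87620062-87620311 for Inpp5d, chr5:104434861-104435110 for Spp1 and chr15:27466427-27466676 for Ank.
Inpp5d: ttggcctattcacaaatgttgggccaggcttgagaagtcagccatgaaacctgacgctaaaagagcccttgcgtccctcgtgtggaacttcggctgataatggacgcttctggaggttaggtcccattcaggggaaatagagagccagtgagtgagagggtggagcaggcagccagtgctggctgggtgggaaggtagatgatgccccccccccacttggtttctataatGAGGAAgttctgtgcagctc
Spp1: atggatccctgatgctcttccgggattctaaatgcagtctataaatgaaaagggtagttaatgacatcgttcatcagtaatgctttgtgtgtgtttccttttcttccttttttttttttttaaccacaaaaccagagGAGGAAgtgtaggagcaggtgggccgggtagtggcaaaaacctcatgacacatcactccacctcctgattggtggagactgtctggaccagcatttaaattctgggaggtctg
Ank: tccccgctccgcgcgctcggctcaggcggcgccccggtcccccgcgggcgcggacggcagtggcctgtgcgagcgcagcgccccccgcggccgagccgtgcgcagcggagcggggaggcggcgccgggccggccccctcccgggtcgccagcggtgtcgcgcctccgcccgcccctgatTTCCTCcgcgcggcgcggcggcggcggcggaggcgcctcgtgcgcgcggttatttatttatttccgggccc
The windows were picked for holding the core, which is present once in each. The windows of Ccl6, Csf1 and Cst7, also 0 bases from the 5′ end, hold none. The core was in 23.3% of 32851 windows of this length in the table, and in 3 of the 9 higher DAM stage 2 genes that had a window there. Of those 9, the windows of Serpine2, Igf1 and Hif1a lie 2515, 2846 and 6492 bases from the 5′ end in the count table. The E-box CACGTG was in 2 of these 9 and in 6.02% of all windows, and the AP-1 letters TGANTCA, with N for any base, were in 1 of the 9 and in 6.75% of all. These matches describe the sequence and not binding.

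**Figure D4:**
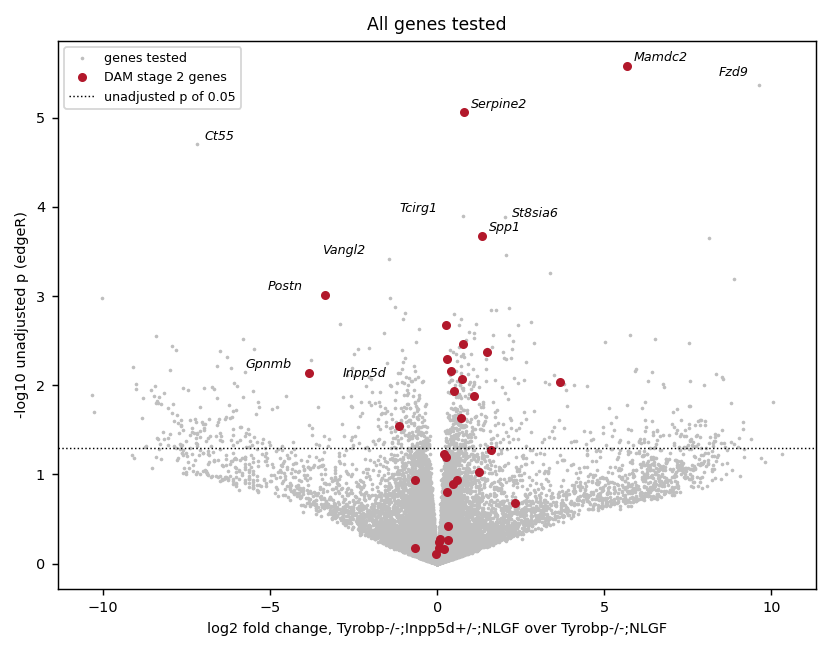
log2 fold change of the compound mutant over Tyrobp-/-;NLGF (x axis) and -log10 of the unadjusted p from edgeR (y axis) for all 20390 tested genes, with the 33 tested DAM stage 2 genes as large points and an unadjusted p of 0.05 as the dotted line. Mamdc2, Fzd9 and Serpine2 have the smallest p among the higher genes, and Ct55 among the lower.

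SHIP1 acts on the product of PI3K, and the transcripts of that pathway gave no member with an unadjusted p under 0.05. Of 45 genes of SYK and PI3K signalling, all tested, 15 were higher and 30 lower by sign, with a median log2 fold change of -0.09. All compound libraries lay above both others for 2 of them (4.44%) and below both for 6 (13.3%). Among all genes these shares were 9.13% and 9.66%. Syk, the kinase that docks on DAP12, was at 42.9, 49.1 and 50.6 CPM in the compound mutant and at 59.5 and 65.3 CPM in Tyrobp-/-;NLGF, without overlap (log2 fold change -0.39, 95% interval -1.02 to 0.23). Plcg2, the phospholipase that acts under SYK, averaged 74.7 ± 16.3 CPM in the compound mutant (SD, n = 3) and 79.1 ± 0.423 CPM in Tyrobp-/-;NLGF (SD, n = 2). Of 14 tested phosphoinositide phosphatases Inpp5d alone had an unadjusted p under 0.05. Inppl1, which encodes the related phosphatase SHIP2, was at 19.7, 22.2 and 19.7 CPM in the compound mutant and at 18.2 and 18.4 CPM in Tyrobp-/-;NLGF (log2 fold change 0.17, 95% interval -0.28 to 0.61). The lists of inhibitory tyrosine phosphatases (12 tested) and Fc receptors (9 tested) also gave no member with an unadjusted p under 0.05. All genes gave 4.08% at this p, and 0 members in lists of these sizes (45, 12 and 9) cannot be told from that share.

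Outside these pathways, the rule for named genes took the 12 higher and 12 lower genes of smallest p at 5 CPM or more, where 448 of 10818 genes (4.14%) had an unadjusted p under 0.05, 264 higher and 184 lower. At that level the compound libraries all lay above both others for 10.7% of genes and below both for 9.96%. None of these 24 passed over all genes, and Serpine2, Spp1 and Ctsl are among them. Tcirg1, a subunit gene of the proton pump of lysosomes, was at 123, 127 and 123 CPM in the compound mutant, against 81.2 and 65.9 CPM in Tyrobp-/-;NLGF (log2 fold change 0.76, SE 0.12, adjusted p = 0.447 in edgeR). St8sia6, which encodes a sialyltransferase, was at 19.6, 18.3 and 39.7 CPM in the compound mutant, against 6.99 and 5.66 CPM in Tyrobp-/-;NLGF (log2 fold change 2.03, SE 0.33, adjusted p = 0.447 in edgeR). Both lay nearer to NLGF in the compound mutant, at 90.5% and 19.6% of the NLGF mean, against 53.5% and 4.80% in Tyrobp-/-;NLGF.

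Srxn1, which encodes the antioxidant enzyme sulfiredoxin, was at 14.4, 10.5 and 8.44 CPM in the compound mutant and at 3.62 and 2.92 CPM in Tyrobp-/-;NLGF. Il1r1, the interleukin-1 receptor gene, was at 12.5, 6.45 and 6.47 CPM in the compound mutant and at 0.418 and 2.02 CPM in Tyrobp-/-;NLGF. Neither gene had overlapping groups, and their log2 fold changes were 1.76 (SE 0.40) and 2.79 (SE 0.67). That of Il1r1 was 2.07 without Tyrobp-/-;NLGF replicate 1 and 4.33 without replicate 2 of that group. The others on the higher side were Vps41, of a complex that tethers lysosomes (0.65), Spsb1 (0.51), Nrep (0.72), the RNA-binding protein gene Rbmx (0.94) and Pdcd1, the immune checkpoint receptor gene (1.602), each given as the log2 fold change.

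On the lower side, Vangl2, a gene of planar cell polarity, was at 5.28, 3.53 and 3.60 CPM in the compound mutant, against 10.1 and 12.6 CPM in Tyrobp-/-;NLGF (log2 fold change -1.45, SE 0.27, adjusted p = 0.775 in edgeR). Bcl2l11, which encodes the pro-apoptotic protein BIM, was at 31.7, 32.3 and 30.4 CPM in the compound mutant and at 45.4 and 46.6 CPM in Tyrobp-/-;NLGF (log2 fold change -0.55, SE 0.13). Abcc4, a transporter gene, was at 5.42, 6.76 and 11.8 CPM in the compound mutant and at 21.4 and 21.1 CPM in Tyrobp-/-;NLGF. For all 3 genes the groups did not overlap, and Abcc4 was at 93.5% of the NLGF mean in the compound mutant and at 248% in Tyrobp-/-;NLGF. The remaining lower genes were Dtd1, Foxn2, Cul9, Smpdl3b, Dnajc9, Mfsd8, Rtn4ip1, Wapl and Incenp, with log2 fold changes from -2.55 for Incenp to -0.70 for Wapl. That of Incenp was -3.77 without compound replicate 3.

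Of the gene lists drawn in the plot of shares, that of the cell cycle had the largest share of members lower at an unadjusted p under 0.05. This held for 4 of 22 (18.2%, against 1.85% lower among all genes), among them Mcm2, Mcm3 and Mcm6 of the DNA replication helicase. Mcm2 was at 6.16, 18.8 and 16.4 CPM in the compound mutant, against 39.9 and 32.8 CPM in Tyrobp-/-;NLGF (log2 fold change -1.40, SE 0.44), and Hmgb2 had the library order of S100a8. The count of 4 was 2 with the neutrophil covariate and 1 without both Tyrobp-/-;NLGF replicate 1 and compound replicate 2. It was between 1 and 5 with each library left out.

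Several further lists had a few members with an unadjusted p under 0.05, beside 4.08% of all genes. In glycolysis, where 2 of 21 did (9.52%), the glucose transporter gene Slc2a1 was at 116, 109 and 106 CPM in the compound mutant and at 66.2 and 84.9 CPM in Tyrobp-/-;NLGF, with no overlap (log2 fold change 0.54, SE 0.17). The hexokinase gene Hk1 was at 3.58, 10.7 and 7.76 CPM in the compound mutant and at 19.4 and 18.6 CPM in Tyrobp-/-;NLGF, also with no overlap (log2 fold change -1.37, SE 0.43). Of 28 lipid handling genes (10.7%) Lpl and Fabp3 were the higher and Plin2 the lower member at this p. Of 37 lysosomal genes Ctsl was higher and Tfeb lower (5.41%), a share near that of all genes. Plin2 had the library order of S100a8. Of 22 tested cytokine and chemokine genes (9.09%), Ccl12 and the caspase gene Casp1 were higher, at log2 fold changes of 0.69 (SE 0.23) and 0.43 (SE 0.16). Of 18 genes of the TREM family and ITAM adaptors (11.1%), Treml2 (log2 fold change 1.95, SE 0.62) and the scarcely detected Treml1 were higher.

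The homeostatic genes of microglia varied little. Of 32 members, Ltc4s, which encodes leukotriene C4 synthase, alone had an unadjusted p under 0.05, and the log2 fold changes of the list ran from -0.27 to 0.28 with a median of -0.07. In the immediate early list the nuclear receptor gene Nr4a1 alone did, of 30, at 5.93, 8.32 and 12.7 CPM in the compound mutant and 18.2 and 25.1 CPM in Tyrobp-/-;NLGF. None did among 22 genes of cholesterol synthesis, 28 of the interferon response, 15 of MHC class I and II, 17 of complement, 20 phagocytic receptors and 20 of the integrated stress response. Of 31 Alzheimer risk genes Inpp5d alone did. All genes gave 4.08% at this p, and lists of this size with 0 or 1 such member cannot be told from that share. All compound libraries lay above both others for 5 interferon genes (17.9%) and below both for 0. For Alzheimer risk genes these counts were 4 (12.9%) and 7 (22.6%), against 9.13% and 9.66% of all genes.

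**Figure D5:**
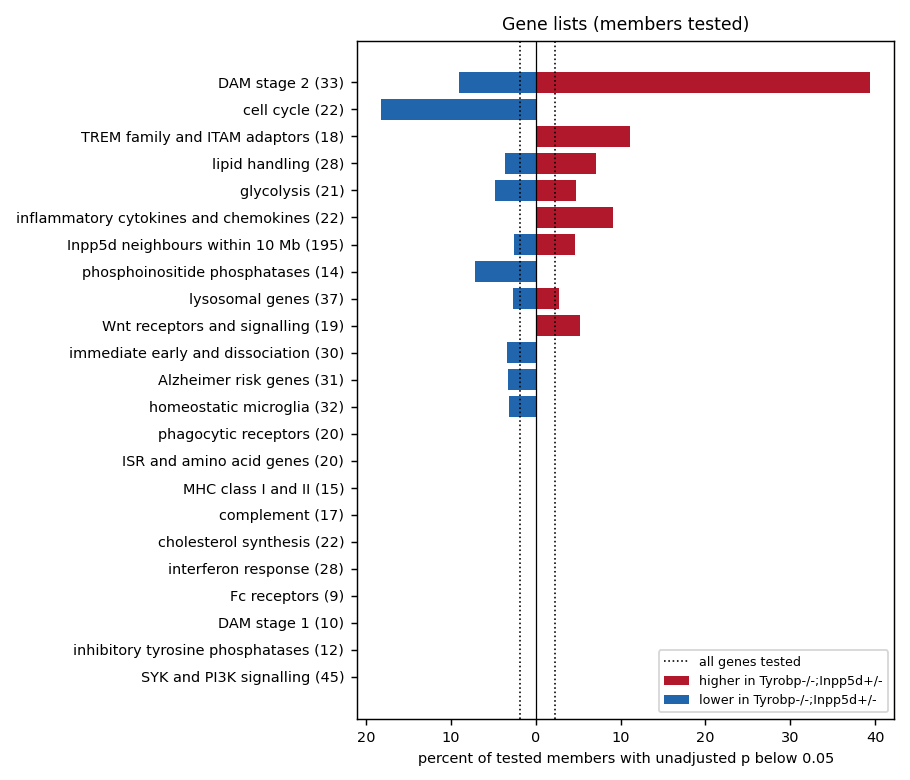
Percent of the tested members of each gene list (number tested in parentheses) with an unadjusted p under 0.05, to the right for members higher and to the left for members lower in the compound mutant than in Tyrobp-/-;NLGF. Dotted lines mark the shares over all tested genes, 2.23% higher and 1.85% lower, and the DAM stage 2 list, with 13 higher and 3 lower of 33, reaches farthest.

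Genes next to Inpp5d were examined because strain variants close to a targeted gene can be inherited with it, which was not tested here. Of 195 tested genes within 10 Mb, 9 were higher and 5 lower at an unadjusted p under 0.05, 7.18% against 4.08% of all genes. Wdfy1, which encodes an endosomal adaptor protein and lies 7.84 Mb from Inpp5d, was at 51.1, 59.5 and 54 CPM in the compound mutant, against 10.8 and 11.9 CPM in Tyrobp-/-;NLGF (log2 fold change 2.27, SE 0.59). It was also low in 1 NLGF library, at 57.2, 40.5 and 9.80 CPM, and at 35.8, 45.6 and 58.2 CPM in Inpp5d+/-;NLGF. Serpine2 and Pdcd1, at 7.76 and 6.32 Mb, were named above, and the GTPase gene Arl4c, at 0.953 Mb, had a log2 fold change of 0.48 (SE 0.17). Without the genes within 10 Mb of Inpp5d and Tyrobp, Mamdc2 and Fzd9 were again the called genes.

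Whether the effect of Inpp5d+/- depends on Tyrobp was tested as the difference between its effect without Tyrobp and its effect with Tyrobp. No gene passed (0% of 20390) in edgeR, with 958 at an unadjusted p under 0.05 (4.7%), and DESeq2 called 36. Mamdc2 and Fzd9 had the smallest adjusted p, 0.0779 each, and for Mamdc2 the interaction was 5.77 on the log2 scale (95% interval 4.26 to 7.28). Of the 13 higher DAM stage 2 genes, 13 had a positive interaction and 11 an unadjusted p under 0.05, a count that uses the libraries that chose them. With Tyrobp present, 9 of these 13 were higher in Inpp5d+/-;NLGF than in NLGF, beside 19 of the 33 tested DAM stage 2 genes and 10112 of all 20390 genes. Of the 13, Serpine2 alone had an unadjusted p under 0.05 there.

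At 5 CPM or more, the genes of smallest p in the interaction were Srxn1, St8sia6, Ptpn22, Vangl2 and Bcl2l11. Srxn1 had a log2 interaction of 2.71 (95% interval 1.54 to 3.88), and with Tyrobp present it was at 3.88, 3.396 and 7.08 CPM in Inpp5d+/-;NLGF and at 7.49, 10.8 and 9.36 CPM in NLGF. It thus lay on opposite sides in the 2 backgrounds. Bcl2l11 did likewise, at 53.3, 52.5 and 42.4 CPM in Inpp5d+/-;NLGF and 40.9, 41.1 and 39 CPM in NLGF. The interaction of Ptpn22, a tyrosine phosphatase gene of immune cells, came from the libraries with Tyrobp, at 9.34, 5.37 and 2.50 CPM in Inpp5d+/-;NLGF and 0.0962, 0 and 0.255 CPM in NLGF.

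For Inpp5d+/-;NLGF against NLGF no gene passed in edgeR (0%), with 951 at an unadjusted p under 0.05 (4.66%), and DESeq2 called 29. Of the 448 genes of at least 5 CPM with an unadjusted p under 0.05 in the compound comparison, 255 (56.9%) had the same sign there, beside 50.3% of all genes at this level. The comparisons share no library, and across these genes Spearman's rho between their log2 fold changes was 0.02, a description over genes that are not independent replicates.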

How the data were processed

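The submitters' processing notes name the aligner STAR 2.7.3a, the counter featureCounts 1.6.4 and the builds mm10 and GRCm38.p6. The authors deposited whole-number read counts per gene, 1 column a library and without normalization. Per the labels' protocols, RNA came from the RNeasy Plus Micro kit and cDNA from the SMART-Seq v4 kit, which marks no strand, so reads of overlapping or antisense genes cannot be told apart. Not given in the sources used here are the annotation release, the strand setting and how reads with several positions were handled. Members of multigene families are therefore uncertain. The deposited table also holds a gene length in bases, which was not used. All 37 rows of chromosome M held 0 counts.

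Groups follow the genotype label, and replicate numbers follow sample order and pair nothing. No library pair held identical values. The series' design text counts mice, but no label ties a library to an animal or litter, so p-values measure only how these libraries vary, which may be technical. Over all 11 libraries totals ran from 29490567 to 66637052 counts. A floor of 3 counts was 0.0477 to 0.1 CPM, and it covers counting error only, since these reads carry no molecular identifiers.

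Genes were kept with filterByExpr (minimum count 10, minimum total 15) and scaled by TMM. A model with 1 coefficient per genotype was fitted in edgeR 4.0.16 (R 4.3.3, glmQLFit and glmQLFTest) to all 11 libraries. The estimate of spread is thus common to the genotypes, which the 2 Tyrobp-/-;NLGF libraries alone would hardly give. Adjusted p-values are Benjamini-Hochberg values over all 20390 genes within a comparison, with a threshold of 0.05. The SE was taken from the test statistic, and intervals are 95% intervals from the same test. Unadjusted p-values are from this test too. The procedure was tested on simulated counts, drawn gene by gene without shared variation such as that of the neutrophil markers. That test therefore cannot show whether the calls hold in these libraries.

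The members, gene lists and tests were chosen with earlier results of these data known. Named were Inpp5d, Tyrobp, Trem2 and App, all called genes, the 12 higher and 12 lower genes of smallest p at a mean of 5 CPM or more, up to 4 genes per list, any member of the DAM stage 2, SYK and PI3K and phosphoinositide phosphatase lists, 5 interaction genes, 4 neighbours of Inpp5d within 10 Mb, and up to 3 markers per cell type. Lists are described by counts and medians, with no set test. The result of 1 list member is not reported here. Alternatives were 2 other scalings, other filters, DESeq2 1.42.0, limma-voom (limma 3.58.1) with quality weights, each library left out, a neutrophil marker covariate, 1 surrogate variable (sva 3.50.0), the 5 libraries alone, and a threshold of 0.1. Promoters were matched by symbol to a RefSeq table, with 11 of 15 sought found, and motifs were searched on both strands.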

Additional observations from a re-analysis of the deposited data

How the results depend on the processing

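DESeq2 called 50 of the 20390 tested genes, 36 higher and 14 lower, where edgeR called 2. Among the 50 were Fzd9 and 6 of the 33 tested DAM stage 2 genes, Mamdc2 included. That list was drawn up with earlier results of these libraries in view. The count of 2 called genes was 3 with upper-quartile scaling or a minimum count of 50 (Serpine2 added), and 1 without a filter. It was 0 with limma-voom, with the neutrophil covariate, with 1 surrogate variable, with the 5 libraries alone, and without both compound replicate 2 and Tyrobp-/-;NLGF replicate 1. It was 0 to 1 with each library left out, where a lone Tyrobp-/-;NLGF library is taken to vary as the other groups do. The cause of these changes was not tested. The interaction had 0 called genes, 2 with a minimum count of 50 or a threshold of 0.1, 36 with DESeq2, and 0 to 1 with each library left out. Inpp5d+/-;NLGF against NLGF had 0, and 29 with DESeq2. The 13 higher DAM stage 2 genes at an unadjusted p under 0.05 were 11 to 16 in number under every alternative run. The 4 lower cell cycle genes were 2 with the neutrophil covariate, 1 without both libraries named above, and 1 to 5 with each library left out. Single genes were followed over these settings only if named by the rule for genes of small p, or as list members with an unadjusted p under 0.05 in edgeR. Inpp5d, Tyrobp, Trem2 and App were followed too. Among these genes Gpnmb alone changed sign. Its log2 fold change ran from -4.84 to 1.28 over the fits with a library left out (1.28 without Tyrobp-/-;NLGF replicate 1), and was 1.54 without both libraries. Other named genes, such as Itgax, Axl, Syk and Ct55, were not followed in this way. The median log2 fold change of all genes lay between -0.02 and 0.06 in all settings. No paired analysis was possible because the labels give the libraries no shared replicate numbers. With 3 and 2 libraries the difference of St8sia6, 2.03 on the log2 scale (SE 0.33), did not pass over all genes, so a 2-fold change was not detectable in a gene of the median SE of 0.27.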

Other observations

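Some genes of low level, named after their values were seen, had among the smallest p-values of the comparison. Ct55 (chromosome X) had 0, 1 and 0 counts in the compound mutant and 55 and 71 counts in Tyrobp-/-;NLGF, with 47 to 291 counts in the 6 libraries with Tyrobp (adjusted p = 0.101 in edgeR). The compound mutant thus held next to none of this transcript. B9d1, a gene of the ciliary transition zone, had 175, 132 and 105 counts in the compound mutant and 12 and 13 counts in Tyrobp-/-;NLGF (adjusted p = 1 in edgeR). The carbonic anhydrase gene Car13 had 49, 13 and 119 counts in the compound mutant and 0 in both Tyrobp-/-;NLGF libraries, at least 20.4-fold higher in the compound mutant against a floor of 3 counts per library (adjusted p = 1 in edgeR).

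DESeq2 called genes of neurons among its 50, such as Tubb3 and Mapt, beside the high neuron marker sum of compound replicate 1 (22.4 CPM). The part of that library in those calls was not tested.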
